A study of Homo sapiens with 4 samples.

Results

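The genes described here are 10 transcripts of the Hippo pathway and of its YAP-TEAD output: CTGF, CYR61, ANKRD1, AMOTL1, AMOTL2, LATS1, LATS2, YAP1, WWTR1 and TEAD1. They were taken by symbol from the 56271 genes of the count table, and all 10 were found. Poly-A RNA was sequenced from SKBR3, a HER2-positive breast cancer cell line, in 2 eGFP control libraries and 2 libraries of VIRMA-overexpressing cells. VIRMA is a scaffold of the complex that writes N6-methyladenosine on RNA. Per the study's methods, both groups carried a lentiviral vector with the human ubiquitin C promoter and eGFP, in the second group joined to HA-tagged full-length VIRMA, and both were sorted for eGFP and expanded. The methods call the libraries biological duplicates, and an effect of VIRMA cannot be told apart from another difference between the transduced cells or their dishes. The labels attach a low-oxygen chamber to all 4 libraries whereas the methods describe ordinary culture, and how dense each dish was at harvest is not given in the sources used here.

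The Hippo pathway is a kinase cascade that senses cell density, cell shape and the stiffness of the surroundings. The kinases LATS1 and LATS2 phosphorylate the co-activators YAP1 and WWTR1 (also called TAZ) and so keep them out of the nucleus. Co-activators that enter the nucleus bind TEAD transcription factors and switch on genes such as CTGF, CYR61 and ANKRD1. Angiomotins bind the co-activators in the cytoplasm and at junctions, and AMOTL2 and LATS2 are themselves targets that feed back on the pathway. RNA levels do not report phosphorylation or localisation, by which the pathway is mainly regulated.

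TEAD factors bind the letters GGAATG, so the promoters of the genes (250 bases before to 50 after each RefSeq start, GRCh38.p14) were searched for these letters on both strands. Promoters were in the RefSeq table for 8 of the 10 genes, CYR61 and TEAD1 not being among them, with 11 start sites in all. The motif lay in 5 of the 11, one each for CTGF, ANKRD1, AMOTL2, LATS2 and YAP1. Of all 35116 promoters of this length, 14% held it. The matches with the bases around them are printed here because TEAD factors are the route by which YAP1 and WWTR1 reach DNA, and capitals mark GGAATG or its reverse complement CATTCC. All lie upstream of the RefSeq start of their own window except that of LATS2, which lies just after it. By the gene coordinates used for counting, the LATS2 match lies upstream of the gene and the AMOTL2 match within it.
CTGF, chr6:131951450-131951553, minus strand: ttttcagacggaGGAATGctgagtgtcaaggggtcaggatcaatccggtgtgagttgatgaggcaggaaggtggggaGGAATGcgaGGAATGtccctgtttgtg
ANKRD1, chr10:90921290-90921319, minus strand: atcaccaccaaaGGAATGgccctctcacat
ANKRD1, chr10:90921198-90921227, minus strand: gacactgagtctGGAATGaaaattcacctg
AMOTL2, chr3:134374499-134374528, minus strand: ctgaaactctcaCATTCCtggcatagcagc
LATS2, chr13:21061560-21061589, minus strand: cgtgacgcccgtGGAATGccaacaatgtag
YAP1, chr11:102110273-102110302, plus strand: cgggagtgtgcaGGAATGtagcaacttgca
CTGF held 3 matches, beginning at -169, -104 and -95 from the start, and ANKRD1 held 2, at -220 and -128, the latter inside the longer first exon that the count table gives this gene. The single matches lay at -69 in AMOTL2, at 10 in LATS2 and at -162 in YAP1. The letters TGANTCA, a loose AP-1 pattern with any base at the centre, were in 2 promoters, against 7.71% of all promoters. They read TGATTCA in ANKRD1 and TGAATCA in LATS1, so neither has C or G at the centre. The SRF CArG box was in 0 of the 11, against 1.29%. A match is a description of the sequence and not evidence of binding.

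The libraries held 81446932 to 86375474 counts. VIRMA, listed under its older symbol KIAA1429, was counted 710 and 682 times in the eGFP controls but 3437 and 3460 times under VIRMA overexpression, 2.29 higher on the log2 scale. Markers were checked for cell type, which they can describe without identifying the line. Of 8 luminal and HER2 markers, 7 passed the filter of 1 RPKM (counts scaled by exonic length and library total). ERBB2 stood at 651 to 701 RPKM. Among these 7 markers, 3 were higher and 3 lower under VIRMA overexpression (edgeR adjusted p below 0.05, as for 71% of all tested genes). CDH1, the defining epithelial cadherin, was near 0, at 0.00937 to 0.0656 RPKM. Fibroblast markers, of interest because fibroblasts express CTGF and CYR61 strongly, summed to 1.34 to 1.40 RPKM in the controls and 0.903 to 0.968 in the VIRMA-overexpressing libraries. This was almost wholly COL1A1, and the other 7 of these 8 markers reached at most 0.0292 RPKM. Summed RPKM also differed for 5 endothelial markers (0.963 to 1.11 against 1.34 to 1.47), 6 basal or mesenchymal markers (0.335 to 0.394 against 0.233 to 0.237, CDH2 at 0 throughout) and 5 leukocyte markers (0.812 to 1.32 against 0.675 to 0.729). The endothelial sum was mostly CDH5, at 0.904 and 0.805 RPKM in the controls against 1.21 and 1.30 in the VIRMA-overexpressing libraries. PECAM1 and VWF were lower in the latter, and KDR and TEK, both near 0, were higher. Of the leukocyte markers CD3E was higher and the others were lower. Mitochondrial genes took 11.35% and 11.6% of counts in the controls and 12.8% in each VIRMA-overexpressing library. The part of these low markers and of the mitochondrial share in the results was not tested.

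Of the 10 genes, 9 passed the expression filter of RPKM above 1 in at least 2 libraries, and ANKRD1 did not. By edgeR at an adjusted p below 0.05, 5 were higher in VIRMA-overexpressing cells (AMOTL2, LATS1, YAP1, LATS2 and TEAD1), 3 were lower (CTGF, CYR61 and AMOTL1) and WWTR1 did not pass. None of the 9 passed the study's second threshold of a 2-fold change, whereas 7.46% of all 12205 tested genes did (4.52% higher, 2.93% lower). At the adjusted p alone 71% of all tested genes were called, 35.1% higher and 35.9% lower, and with calls this common the 8 calls among 9 genes (88.9%) are no result about these genes as a set. The median absolute log2 fold change was 0.29 over the 9 genes and 0.34 over all tested genes. In CPM (counts scaled to the library total with TMM factors) the libraries of the 2 groups did not overlap for 8 of the 9, against 84.3% of all tested genes (42.7% higher, 41.6% lower).

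**Figure D1:**
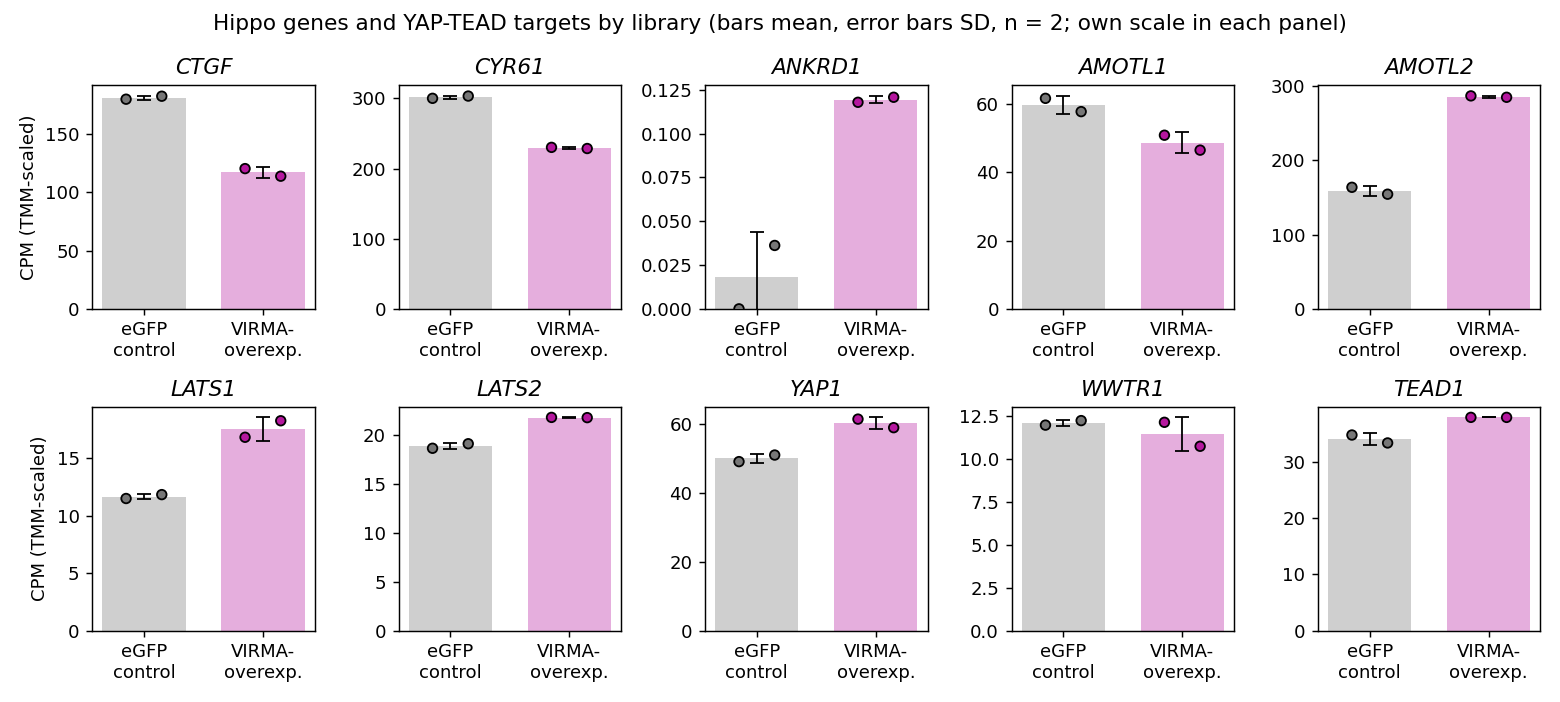
Level of each of the 10 genes in CPM after TMM scaling (vertical axis, own scale from 0 in each panel) in eGFP control (grey) and VIRMA-overexpressing (magenta) libraries. Points are libraries, bars are means and error bars are SD (n = 2); the control bar of ANKRD1 stands at 0.0181 CPM, and WWTR1 is the panel in which the points of the 2 groups overlap.

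CTGF and CYR61, the secreted matricellular proteins most used as readouts of YAP-TEAD activity, were both lower. CTGF (chromosome 6, 131948176 to 131951373, minus strand, GRCh38) was counted 14838 and 15144 times in the eGFP controls but 10219 and 9436 times under VIRMA overexpression. Its mean level was 181.4 ± 1.82 CPM (SD, n = 2) in the former and 117.2 ± 4.61 CPM in the latter. Both VIRMA-overexpressing libraries lay well below both controls. CTGF fell by 0.63 ± 0.0345 (SE) on the log2 scale, or 1.55-fold, with an edgeR adjusted p of 4.83e-18, and 9.74% of tested genes had a log2 fold change as low or lower.

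CYR61 (chromosome 1, 85580761 to 85583962, plus strand) had the most counts of the 10 in the controls, with 24713 and 25135 there versus 19516 and 18917 after VIRMA overexpression. In CPM it stood at 301.6 ± 2.28 (SD, n = 2) and 229.3 ± 1.15 in the respective groups, again without overlap. CYR61 fell by 0.40 ± 0.0304 (SE) on the log2 scale with an edgeR adjusted p of 6.24e-14. Its 95% interval of -0.46 to -0.33 lay above that of CTGF, -0.70 to -0.56.

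ANKRD1, a nuclear ankyrin repeat protein and a strong YAP target in many cell types (chromosome 10, 90912096 to 90921276, minus strand), was barely detected. It had 0 and 3 counts in the eGFP controls and 10 in each VIRMA-overexpressing library. The count of 0 allows a level of up to 0.0364 CPM, the level of 3 counts. Over the summed counts the ratio of VIRMA-overexpressing to control was 6.57 (95% exact interval 1.95 to 34.5, which covers counting error only and not the spread between cultures). Where a looser filter let it be tested it did not pass (edgeR adjusted p 0.0851 with filterByExpr and 0.256 with no filter). The direction of its few counts was opposite to that of CTGF and CYR61.

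AMOTL2 and LATS2, the YAP-TEAD targets that restrain the co-activators, were higher, unlike CTGF and CYR61. AMOTL2, an angiomotin-like scaffold that binds YAP1 (chromosome 3, 134355874 to 134375479, minus strand), gave 13482 and 12797 counts from control cells but 24319 and 23586 from VIRMA-overexpressing cells. The mean CPM was 159.0 ± 6.57 (SD, n = 2) and 285.9 ± 1.32, with a wide gap between the groups. AMOTL2 rose 1.80-fold, or 0.85 ± 0.0329 (SE) on the log2 scale, at an edgeR adjusted p of 2.22e-22. This was the change of greatest size among the 9 tested genes, at the 92.8th percentile of all tested genes.

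LATS2 (chromosome 13, 20973032 to 21061547, minus strand) was counted 1535 and 1583 times in control cells and 1848 and 1802 times after VIRMA overexpression. The CPM values were 18.6 and 19.1 against 21.8 in each VIRMA-overexpressing library, a narrow gap. Its rise of 0.21 ± 0.0681 (SE) on the log2 scale, with an edgeR adjusted p of 0.00737, no longer passed with no filter on low counts (edgeR adjusted p 0.0547) or without eGFP control replicate 1 (0.185, edgeR adjusted p 0.0523).

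LATS1, the paralogue of LATS2 that is not usually listed as a YAP target (chromosome 6, 149658153 to 149718256, minus strand), changed more. Control cells gave 947 and 981 counts, and VIRMA-overexpressing cells 1427 and 1512. In CPM these were 11.7 ± 0.239 (SD, n = 2) and 17.5 ± 1.02, and the 2 groups were clearly apart. LATS1 rose 1.50-fold, or 0.59 ± 0.0816 (SE) on the log2 scale, at an edgeR adjusted p of 7.11e-08. An antisense gene whose exon overlaps LATS1 held 22 to 52 counts, few beside those of LATS1.

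AMOTL1, the other angiomotin-like gene with a substantial level (chromosome 11, 94706431 to 94876753, plus strand), was lower while AMOTL2 was higher. Its counts were 5086 and 4795 for control cells but 4319 and 3854 for VIRMA-overexpressing cells, with mean levels of 59.8 ± 2.75 CPM (SD, n = 2) and 48.7 ± 3.10 CPM. The replicates of AMOTL1 spread more than those of CTGF or CYR61 for their level, and the groups still did not overlap. AMOTL1 fell by 0.29 ± 0.0477 (SE) on the log2 scale with an edgeR adjusted p of 1.33e-06.

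Of the co-activators, YAP1 was slightly higher and WWTR1 did not pass the test. YAP1 (chromosome 11, 102110461 to 102233423, plus strand) gave 4049 and 4233 counts from control cells against 5217 and 4887 from VIRMA-overexpressing cells, at mean levels of 50.1 ± 1.35 CPM (SD, n = 2) and 60.3 ± 1.76 CPM. The groups did not overlap, and YAP1 rose 1.20-fold, or 0.27 ± 0.0445 (SE) on the log2 scale, at an edgeR adjusted p of 2.26e-06. YAP1 RNA thus rose while RNA of CTGF and CYR61, known targets of the co-activators, fell. These libraries do not measure YAP1 protein or its activity. WWTR1 (chromosome 3, 149517235 to 149736714, minus strand) was counted 986 and 1014 times in control cells and 1029 and 889 times after VIRMA overexpression. Its groups overlapped, at 12.1 ± 0.186 CPM (SD, n = 2) and 11.4 ± 0.987 CPM, with one VIRMA-overexpressing library between the controls. The difference was -0.08 on the log2 scale, with a 95% interval of -0.27 to 0.10 and an edgeR adjusted p of 0.433, and the upper end of that interval lay below the rise of YAP1. The antisense gene WWTR1-AS1 overlaps exons of WWTR1 and held 58 to 108 counts, and whether the counting used strand is not stated.

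TEAD1, the member of the TEAD family on the list (chromosome 11, 12674591 to 12944483, plus strand), was higher by a small margin. Control cells gave 2866 and 2767 counts, and VIRMA-overexpressing cells 3217 and 3140, with mean levels of 34.1 ± 0.998 CPM (SD, n = 2) and 37.9 ± 0.00464 CPM. The groups did not overlap. The rise of 0.15 ± 0.0531 (SE) on the log2 scale, with an edgeR adjusted p of 0.0103, was not called with filterByExpr (edgeR adjusted p 0.0861), with no filter (edgeR adjusted p 0.0977) or without eGFP control replicate 2 (0.124, edgeR adjusted p 0.088).

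**Figure D2:**
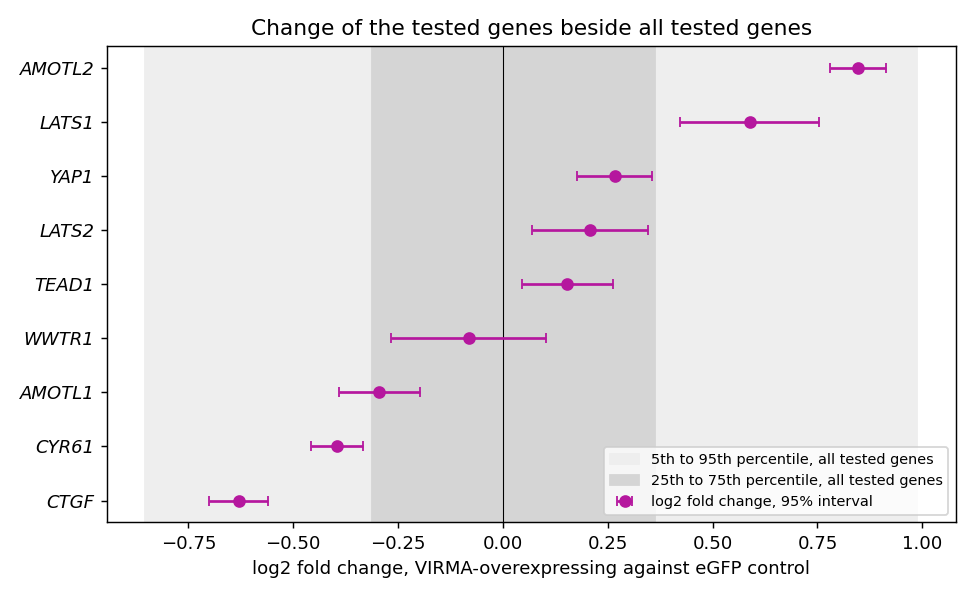
Log2 fold change (horizontal axis) of the 9 tested genes, VIRMA-overexpressing against eGFP control, with 95% intervals from the edgeR fit as bars. The shaded bands hold the middle of the 12205 tested genes (25th to 75th percentile, -0.31 to 0.36, and 5th to 95th percentile, -0.85 to 0.99); all 9 points lie inside the wider band, and AMOTL2, LATS1, CYR61 and CTGF outside the narrower one.

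The order of the genes was compared as RPKM, which divides by exonic length. In the controls CYR61 led at 118.2 ± 0.456 RPKM, followed by CTGF at 74.6 ± 0.471, AMOTL2 at 25.6 ± 1.15, YAP1 at 7.66 ± 0.178 and AMOTL1 at 5.73 ± 0.285 (SD, n = 2). LATS2 at 3.25 ± 0.0444 and TEAD1 at 3.19 ± 0.105 RPKM could not be told apart beyond their spread. WWTR1 at 1.38 ± 0.0162 and LATS1 at 1.30 ± 0.0218 RPKM came last of the tested genes, ANKRD1 standing at 0.00878 ± 0.0124. In the VIRMA-overexpressing libraries AMOTL2 at 48.7 ± 0.427 RPKM came close to CTGF at 51.1 ± 2.22, though both AMOTL2 values lay below both CTGF values, and LATS1 at 2.07 ± 0.111 stood above WWTR1 at 1.39 ± 0.125. In the controls CTGF stood at the 95.3rd and CYR61 at the 97.3rd percentile of RPKM among tested genes.

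A ratio of 2 genes within a library does not depend on how libraries are scaled, so related genes were set against each other in this way. The AMOTL2 to AMOTL1 count ratio was 1.41 and 1.42 on the log2 scale in the controls and 2.49 and 2.61 in VIRMA-overexpressing libraries, a difference of 1.14. Per length, AMOTL2 was 4.45 and 4.48 times AMOTL1 in the controls and 9.44 and 10.3 times in VIRMA-overexpressing libraries. As AMOTL2 rose and AMOTL1 fell, this difference is by arithmetic wider than either change and is no separate result.

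The LATS2 to LATS1 log2 count ratio went from 0.70 and 0.69 in the controls to 0.37 and 0.25, a difference of -0.38. LATS2 stayed the more abundant kinase RNA per length in every library. The WWTR1 to YAP1 log2 count ratio went from -2.04 and -2.06 to -2.34 and -2.46, a difference of -0.35. The CYR61 to CTGF log2 count ratio went from 0.74 and 0.73 to 0.93 and 1.00, a difference of 0.24, the lesser fall of CYR61. In all 4 pairs the groups did not overlap and the difference exceeded the replicate SD of at most 0.085. Such separation was common, at 84.3% of all tested genes in CPM, and its share among ratios of other gene pairs was not computed. An exact two-sided permutation test over 2 against 2 libraries cannot give a p below 0.33, and it gave 0.33 for each pair (0.33 adjusted over the 4 pairs).

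**Figure D3:**
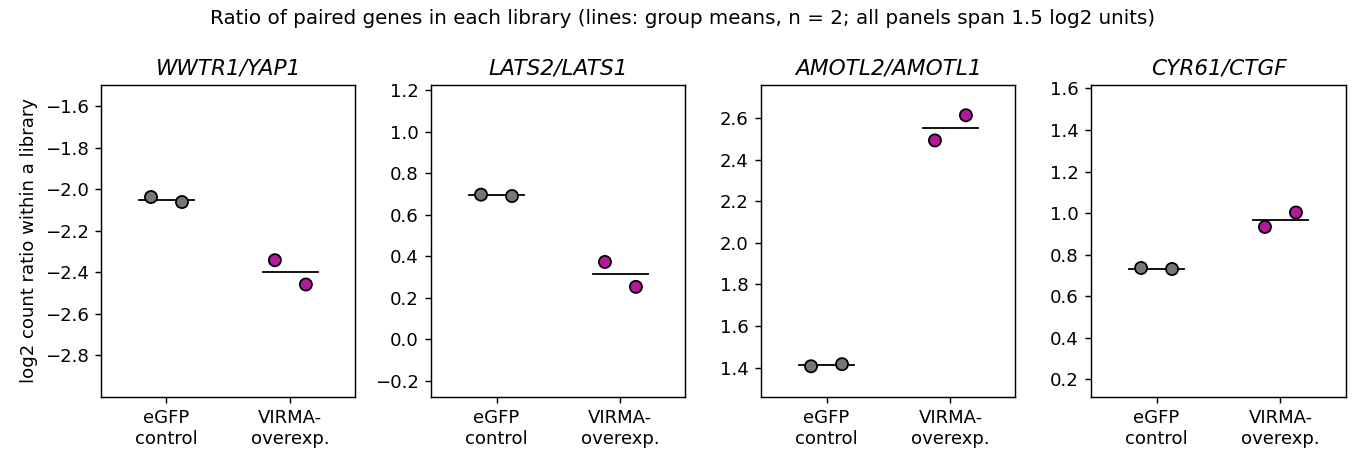
Log2 ratio of the counts of 2 related genes in each library (vertical axis, 1.5 log2 units in every panel), eGFP control in grey and VIRMA-overexpressing in magenta, with group means as lines (n = 2). The AMOTL2 to AMOTL1 ratio moves most, by 1.14, and in each panel the 2 groups do not overlap. In CPM the groups did not overlap for 84.3% of all tested genes either.

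TEAD1 is a minor member of its family in these cells. TEAD4 led at 33.5 and 33.8 RPKM in the controls, ahead of TEAD3 at 13.8 and 14.1, TEAD2 at 4.45 and 4.52 and TEAD1 at 3.27 and 3.12. The most abundant member was lower in VIRMA-overexpressing cells: TEAD4 fell by 0.40 ± 0.0406 (SE) on the log2 scale and TEAD3 by 0.26 ± 0.0523, at edgeR adjusted p of 6.78e-11 and 4.18e-05. TEAD2 was at 0.06 (edgeR adjusted p 0.559). As a share of the summed TEAD RPKM, TEAD1 went from 5.94% and 5.61% in the controls to 8.07% and 7.61%, and TEAD4 from 60.9% in each control to 56.7% and 55.7%. The summed TEAD level was 55.0 and 55.5 RPKM in the controls and 46.8 and 49.3 RPKM in VIRMA-overexpressing libraries. All RPKM values, sums included, are scaled by library totals without TMM factors. That scaling raised log2 fold changes of the tested genes by a median of 0.0857 over the main test.

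Among the angiomotins, AMOT itself was at 0.0586 to 0.111 RPKM, so the family was AMOTL1 and AMOTL2. AMOTL2 made up 81.4% and 81.6% of their summed RPKM in the controls and 90.2% and 91.0% in VIRMA-overexpressing libraries, and the sum went from 32.4 and 30.4 to 54.3 and 53.2 RPKM. YAP1 made up 84.6% and 84.8% of the co-activator RPKM in the controls and 87.1% and 88.0% in VIRMA-overexpressing libraries. LATS1 made up 28.5% and 28.6% of the LATS RPKM in the controls, against 33.3% and 35.1%.

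**Figure D4:**
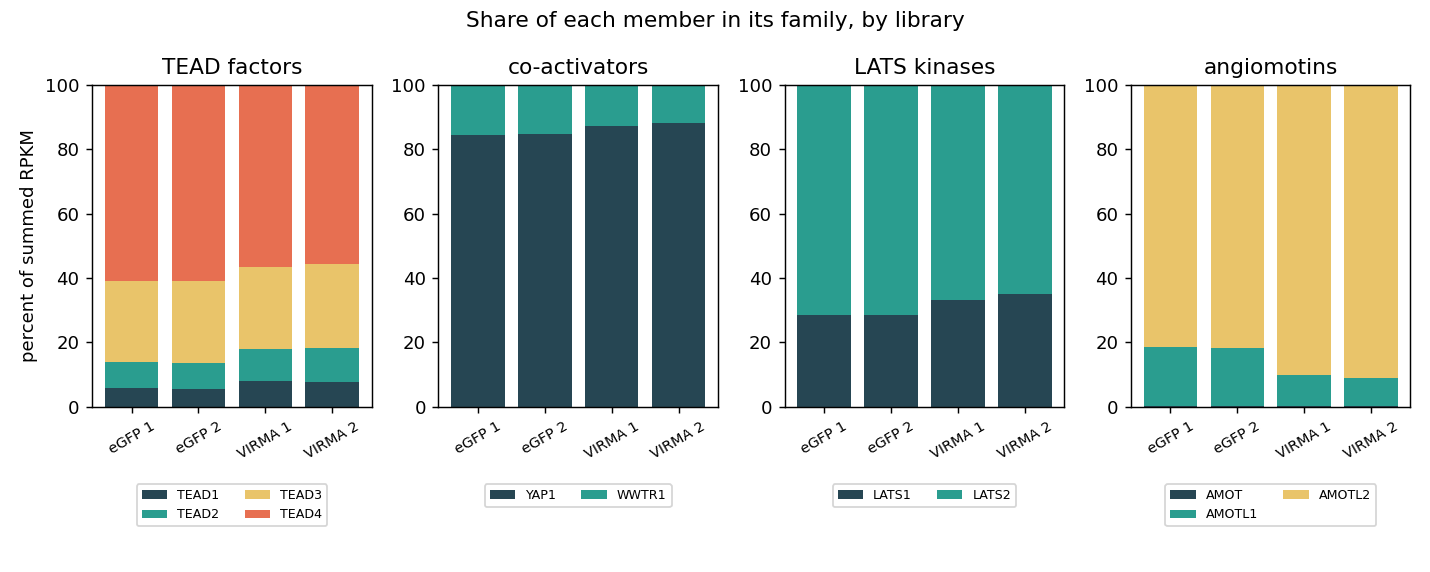
Share of each gene in the summed RPKM of its family (vertical axis, percent) in each of the 4 libraries, for the TEAD factors, the co-activators, the LATS kinases and the angiomotins. TEAD4, YAP1, LATS2 and AMOTL2 hold the greatest share of their family in every library, and the AMOTL2 share is above 90% in both VIRMA-overexpressing libraries.

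Other YAP-TEAD targets moved both ways too, in a list of 17 genes often used as a signature of YAP-TEAD activity. Of these 11 were tested: 5 were higher, 4 lower and 2 did not pass (81.8% called, against 71% of all genes), with a median log2 fold change of 0.12 against 0.01 for all tested genes. GADD45A, also known as a gene induced by DNA damage and other stress, had 10.6 and 13.3 CPM in the controls and 34.0 and 36.8 CPM in VIRMA-overexpressing libraries, 1.57 ± 0.0772 (SE) higher on the log2 scale with an edgeR adjusted p of 2.28e-19. It was the one signature gene past 2-fold. MYOF, a membrane repair protein, was at 0.73 and PTPN14, a phosphatase that binds YAP1, at 0.29. FJX1 fell by 0.85 on the log2 scale, F3, the tissue factor that starts coagulation, by 0.69 and the kinase NUAK2 by 0.64 (edgeR adjusted p at most 9.89e-06 for these 5). The 6 signature genes below the filter were AXL, IGFBP3, FOXF2, CCDC80, TGFB2 and RBMS3, with FOXF2 at 0 counts in every library. In CPM, IGFBP3 and CCDC80 were lower in both VIRMA-overexpressing libraries than in both controls, and TGFB2 was higher. AXL and RBMS3 overlapped. With filterByExpr, no filter or 10 counts in each library, 4 signature genes were called higher and 6 lower, in place of 5 and 4. Those filters called 4816 to 4893 of all tested genes higher and 5184 to 5358 lower.

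Other Hippo kinases, adaptors and upstream regulators moved both ways, most of them by small amounts. Of 25 listed genes 19 were tested, of which 8 were higher, 7 lower and 4 did not pass. This was 78.9% called, against 71% of all tested genes. When scaled by library totals alone, 10 were higher and 5 lower. That scaling moved the whole table the same way. Of all 12205 tested genes it called 5114 higher and 3568 lower, in place of 4282 and 4379. In the main test the median log2 fold change was 0.06, against 0.01 for all tested genes. TAOK3, a kinase upstream of the cascade, had 8.49 and 8.80 CPM in the controls and 17.7 and 17.5 CPM in VIRMA-overexpressing libraries. It was 1.03 ± 0.0858 (SE) higher on the log2 scale, just past 2-fold, with an edgeR adjusted p of 5.59e-13. AJUBA, a LIM protein that inhibits LATS kinases, was at 0.62, STK3, a kinase that activates LATS, at 0.44 and VGLL4, a competitor of YAP1 for TEAD, at 0.35. NF2, the tumour suppressor merlin that recruits LATS to the membrane, fell by 0.38 on the log2 scale (edgeR adjusted p at most 3.71e-05 for these 4).

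Actin cytoskeleton and SRF target genes were listed because they too respond to stiffness and cell shape. Of 18 genes 16 were tested, of which 4 were higher, 9 lower and 3 did not pass. This was 81.2% called, against 71% of all tested genes (35.1% higher, 35.9% lower). The median log2 fold change was -0.18, against 0.01 for all tested genes. TAGLN2, an abundant actin-binding protein, fell from 1003 and 955 CPM in the controls to 580 and 575 CPM, by 0.76 ± 0.0281 (SE) on the log2 scale with an edgeR adjusted p of 4.85e-23. CNN2, a calponin, fell by 0.77 on the log2 scale. In contrast TAGLN, transgelin, was at 1.18, MKL2, a co-activator of SRF, at 0.55, FHL2 at 0.53 and the tropomyosin TPM1 at 0.48 (edgeR adjusted p at most 1.75e-06 for these 5). All 4 higher genes of the list are named here, but not all of the 9 lower ones. Among the lower ones, MKL1, also a co-activator of SRF, was at -0.25 (edgeR adjusted p 0.000318), ACTB at -0.38 and ACTG1 at -0.33. In the controls MKL1 stood at 4.61 RPKM and MKL2 at 1.01 RPKM. SRF itself was at -0.09 (edgeR adjusted p 0.0857).

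**Figure D5:**
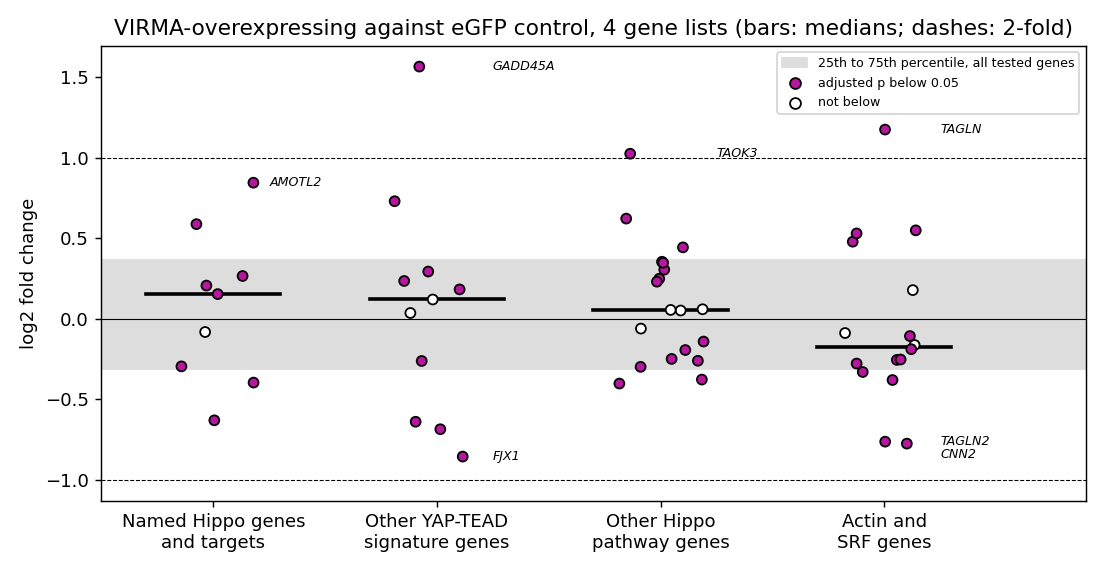
Log2 fold change (vertical axis) of every tested gene in 4 lists: the 9 tested Hippo genes and targets, 11 other YAP-TEAD signature genes, 19 other Hippo pathway genes and 16 actin and SRF genes. Filled points passed an adjusted p of 0.05, black bars are list medians (0.15, 0.12, 0.06 and -0.18), the grey band holds the middle of all tested genes and dashed lines mark 2-fold; each list has points on both sides of 0.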

How the data were processed

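Per the study's methods, the authors checked reads with FastQC, trimmed them with Trimmomatic 0.39, aligned them with STAR 2.5.2a to hg38 and counted them over genes with featureCounts. The deposited table holds unnormalised counts, with exon coordinates and exonic length. Control columns name the control; the others carry a number and were taken as the remaining group, checked by VIRMA. How multi-mapping reads were treated is not stated. All columns of per-sample counts were used.

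RPKM was computed from counts, library totals and exonic length. Genes above 1 RPKM in at least 2 of 4 libraries (12205) were compared with the edgeR 4.0.16 quasi-likelihood test (R 4.3.3), TMM scaling and a model of group alone. P-values were adjusted by Benjamini-Hochberg across these genes, and SE is the log2 fold change over the root of F. The test was checked on simulated data. Replicates differed by more than sampling noise (chi-square per degree of freedom 7.87 and 6.18), and p-values measure the spread between duplicate libraries. Genes and lists were chosen with earlier results of these data known; of 3 lists (YAP-TEAD signature, Hippo, actin and SRF), written from general knowledge, the up to 6 genes of greatest change past the adjusted p are named, with every TEAD gene. Any other gene named, SRF among them, and the 6 signature genes below the filter were chosen after their values were seen. Alternatives were DESeq2 1.42.0, limma-voom (limma 3.58.1), 3 scalings, 3 filters, a replicate block and leaving out each library. Promoter windows came from RefSeq (GRCh38.p14) and were searched for 3 motifs. A planned search of protein sequences was not made.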

Additional observations from a re-analysis of the deposited data

How the results depend on the processing

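CTGF, CYR61, AMOTL1, AMOTL2, LATS1, YAP1 and VIRMA were called in the same direction under all 13 alternatives. LATS2 no longer passed with no filter (0.173), nor TEAD1 with filterByExpr (0.11) or no filter (0.12). With no filter 3 of the genes were higher in place of 5, because LATS2 and TEAD1 were lost. Of all 33976 genes tested with no filter, 4883 were called higher and 5204 lower at the adjusted p. WWTR1 turned positive with library totals alone (0.0045). These filters test more genes and shift the genes they share by a median of -0.0436 and -0.0343, and library totals shift them by 0.0857. Without each library in turn, where the lone library of a group is assumed to vary like the other group, LATS2 ran from 0.185 to 0.224, TEAD1 from 0.124 to 0.18 and WWTR1 from -0.173 to 0.0038, the last without VIRMA-overexpressing replicate 2, and TEAD2 from -0.023 to 0.131, the lower again without VIRMA-overexpressing replicate 2. The 910 genes past both thresholds (552 higher, 358 lower) became 1852 under filterByExpr (1044 and 808), 1957 when no gene was filtered (1137 and 820) and 1619 when each library had to hold 10 counts (930 and 689). Libraries with the same replicate number did not deviate together (correlation 0.0753 over genes, 2 pairs). Blocking on that number gave 541 higher genes and 356 lower ones, LATS2 was at 0.207 and TEAD1 at 0.154, and no call of the 9 genes changed. Of the 10 genes, ANKRD1 alone fell below the RPKM filter. Among the 9 tested genes SE was greatest for WWTR1 (0.0913) and LATS1 (0.0816), which had the fewest counts. How far depth limits these genes was not tested.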
